A study of Mus musculus with 186 samples.

Results

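Sorted luminal cells of the adult mouse mammary gland were divided by the genes they carried into hormone-sensing cells and cells leaning to the progenitor side, and the resulting groups were compared across all other genes. A cell entered when it held at least 100000 reads and 1500 genes after mitochondrial and ribosomal protein genes had been removed. The cells were chosen by measured levels: in each cell the genes at 10 CPM or more (counts scaled to a common library total) were counted in an H set (Esr1, Pgr, Cited1, Areg, Foxa1, Prom1 and Stc2) and in a P set (Kit, Elf5, Aldh1a3, Cd14, Csn3, Ltf and Lcn2). A lead of at least 2 genes for the H set gave 42 hormone-sensing cells, and a lead of at least 2 for the P set gave 12 cells, called P-set cells below. Another 22 cells lay between. These 76 cells passed among 90 sorted luminal cells, in a series of 186 cells that also holds sorted basal cells.

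All cells came from untreated adult female mice of the strain FVB/NJ, with no transgene and no agent named in the labels. Luminal cells were gated as negative for blood and endothelial lineage markers, low for CD29 and positive for CD24, and were captured on the Fluidigm C1, a chip that holds a cell per site and makes cDNA from its polyadenylated RNA. The labels give no mouse for a cell. The series as a whole, basal cells included, is stated to come from 8 mice. For the sorted luminal cells alone the paper gives a smaller number of mice, without assigning cells to them. Each class is therefore 1 sample, no difference below has a replicate check, and none was tested. The labels name a PCR plate, and the 76 cells lay on plates B and C, which serve as the only repeat of each comparison.

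The luminal layer of the mammary duct contains cells that carry the receptors for estrogen and progesterone and cells that do not. The receptor-positive cells sense ovarian hormones and pass the signal on through secreted factors such as amphiregulin (Areg), Wnt4 and RANK ligand (Tnfsf11). Their receptor-negative neighbours include progenitors of the milk-producing alveoli, which depend on the ETS factor Elf5, carry the receptor tyrosine kinase Kit and often make milk proteins at a low level before pregnancy.

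Depth overlapped between the classes, while the number of genes per cell was lower in P-set cells. The 42 hormone-sensing cells held 105636 to 2674221 reads with a median of 1574090.5, and the 12 P-set cells held 990087 to 2101442 with a median of 1289057. At an equal 100000 reads the hormone-sensing cells showed a median of 3822 genes, the cells between 4208, and the P-set cells 2569. Mitochondrial genes took a median of 7.32% of the reads of hormone-sensing cells, with a highest value of 77.0%, and 9.20% of those of P-set cells. The hormone-sensing class made up 55.3% of passing luminal cells (exact 95% binomial interval 43.4 to 66.7), the P-set class 15.8% (8.43 to 26.0) and the cells between 28.9% (19.1 to 40.5). Intervals here cover counting error only, since without molecular identifiers copies of a cDNA made by PCR are counted again.

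Some wells carried transcripts of other cell types. P-set cells 39 and 61 held 4268 and 9696 CPM of the fibroblast proteoglycan gene Dcn. Of the hormone-sensing cells, cell 33 held at least 3 fibroblast markers, cell 25 at least 3 endothelial markers, and cells 19, 25, 62, 63 and 67 at least 3 basal markers. Over the 10 fibroblast markers the summed level ran from 0 to 18982 CPM in hormone-sensing cells and from 0 to 16323 CPM in P-set cells, with medians of 8.33 and 5.98. The 12 basal markers summed to between 0 and 13143 CPM in the former and 1.01 and 1661 CPM in the latter, where Myh11 and Myl9 had no read and cell 5 supplied Krt14 at 1142 CPM. The 10 endothelial markers reached 1787 and 322 CPM, with Cdh5, Esam, Egfl7, Cldn5 and Tie1 at 0 in P-set cells. The 10 immune markers reached 233 and 28.3 CPM, and Ptprc was at 0 in P-set cells. Of the 6 adipocyte markers Adipoq and Plin1 had no read in either class. The part of these wells in the results was not tested, and values without cells 25, 33, 39, 61 and 63 are given beside the list counts that they changed.

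The H genes describe how the hormone-sensing class was chosen and are no finding. Cited1, a transcriptional co-regulator of estrogen responses, ran from 13.7 to 3316 CPM in hormone-sensing cells with a median of 918, and reached 10 CPM in 42 of 42. Areg, the EGF-family ligand induced by estrogen, did so in 40 of 42 with a median of 667 CPM. The estrogen receptor gene Esr1 reached 10 CPM in 33 of 42 cells and the progesterone receptor gene Pgr in 32, and both did in 27. Foxa1, the forkhead factor that opens chromatin for the estrogen receptor, was present in 27 cells, Stc2 in 33 and Prom1 in 23. None of the 12 P-set cells reached 10 CPM for Esr1, Foxa1, Prom1 or Stc2. The other three reached it there in 1 cell (Pgr, Cited1) or 2 (Areg). All 7 H genes were present in 11 hormone-sensing cells, and 18 of 42 had no P gene.

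The P genes divided their class far less evenly. Lcn2, an iron-siderophore binding defence protein, reached 10 CPM in 12 of 12 P-set cells and ran from 49.5 to 15667 CPM. Csn3, kappa-casein, did so in 11 and Cd14, the co-receptor for bacterial lipopolysaccharide, in 9. Kit did so in 5 of 12 cells and Elf5 in 4, and cell 56 alone held both. Aldh1a3, a retinaldehyde dehydrogenase, was present in 2 and lactoferrin (Ltf) in 3. Elf5 was at 1432 CPM in cell 45, which held 93.0% of the Elf5 reads of the class. Without that cell the log2 ratio of hormone-sensing over P-set cells went from −3.03 to 0.55. On plate B, where the class consists of cells 5 and 9, Kit, Elf5, Aldh1a3 and Ltf were higher in the hormone-sensing cells. Their summed levels there were 1.45, 30.8, 30.3 and 9.26 CPM. In the P-set cells of that plate Elf5 was at 0.40 CPM and the other genes at 0. Cell 3 of plate B held 52.4% of all Aldh1a3 reads of the hormone-sensing class. Kit was at 10 CPM in 13 of 22 cells between the classes, and Elf5 in 9. The defining markers Kit and Elf5 were thus below 10 CPM in most cells of the class, and it is named here by its rule and not as progenitors.

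The lead of a set over the other was spread without a gap. In the P-set class 5 cells stood just inside the threshold with a lead of exactly 2, and 4 cells stood just outside with a lead of 1. On the other side 5 hormone-sensing cells had a lead of 2, and 9 cells a lead of 1. Both P-set cells of plate B had a lead of exactly 2. Of the 22 cells between, 18 carried at least 3 genes of each set and 3 carried at most 2 of each. No doublet caller was run. The authors inspected the capture sites under a microscope before cDNA was made.

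**Figure D1:**
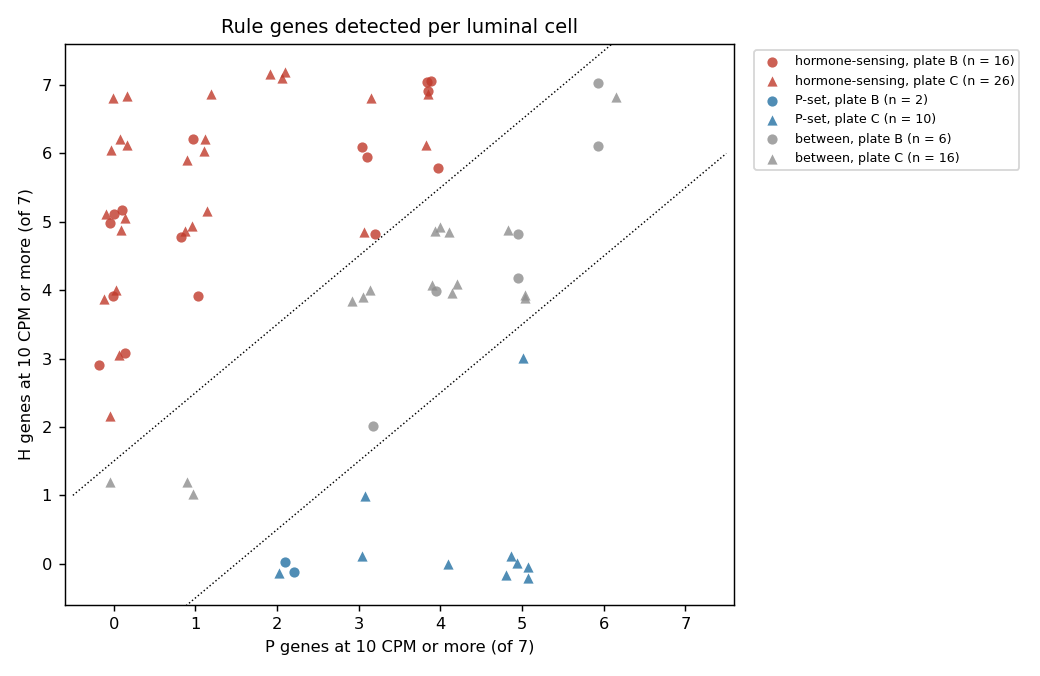
Number of H genes (vertical axis, of 7) and P genes (horizontal axis, of 7) at 10 CPM or more in each of the 76 passing luminal cells, shifted slightly at random so that points do not hide each other; colour gives the class, circles plate B and triangles plate C, and the dotted lines mark the class limits. Most of the 22 grey cells between the limits sit high on both axes, and 2 of the 12 P-set cells are from plate B.

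Across the other genes, 10134 had at least 5 CPM over all passing luminal cells and were compared on the log2 ratio of summed CPM with 1 CPM added, hormone-sensing over P-set. A gene is called higher in a class when this ratio passed 1 over all cells, on plate B alone and on plate C alone. By that rule 3527 genes (34.8%) were higher in hormone-sensing cells and 260 (2.57%) in P-set cells, and these shares are the background for each count below. The plate B condition rests on 2 P-set cells. Over all cells without the plate condition the counts were 4835 (47.7%) and 1726 (17.0%). When the highest cell of each gene was left out, 3672 and 86 genes were called. Without cells 25, 33, 39, 61 and 63 the counts were 4097 and 244, and the median ratio of all genes was 1.29. The median ratio of all genes compared was 0.85 and not 0, so a ratio near 0.85 is the ordinary value over all cells. TMM and median-of-ratios scaling moved this median by −0.38 and −0.44. On plate B alone the median was 3.32, and on plate C alone 0.81. On plate B alone 7149 of the genes compared were past the fold toward hormone-sensing cells and 1052 toward P-set cells. The plate B condition was thus met more readily on the hormone-sensing side. In the P-set sum 759 of the genes compared had no read, against 19 in the hormone-sensing sum, whose depth was 64158127 reads against 17401591. The 5 CPM filter used the reads of all passing cells together. A gene confined to P-set cells thus needed a higher level there to pass than a gene confined to hormone-sensing cells. Without a gene filter 3900 and 276 of 20290 genes were called.

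**Figure D2:**
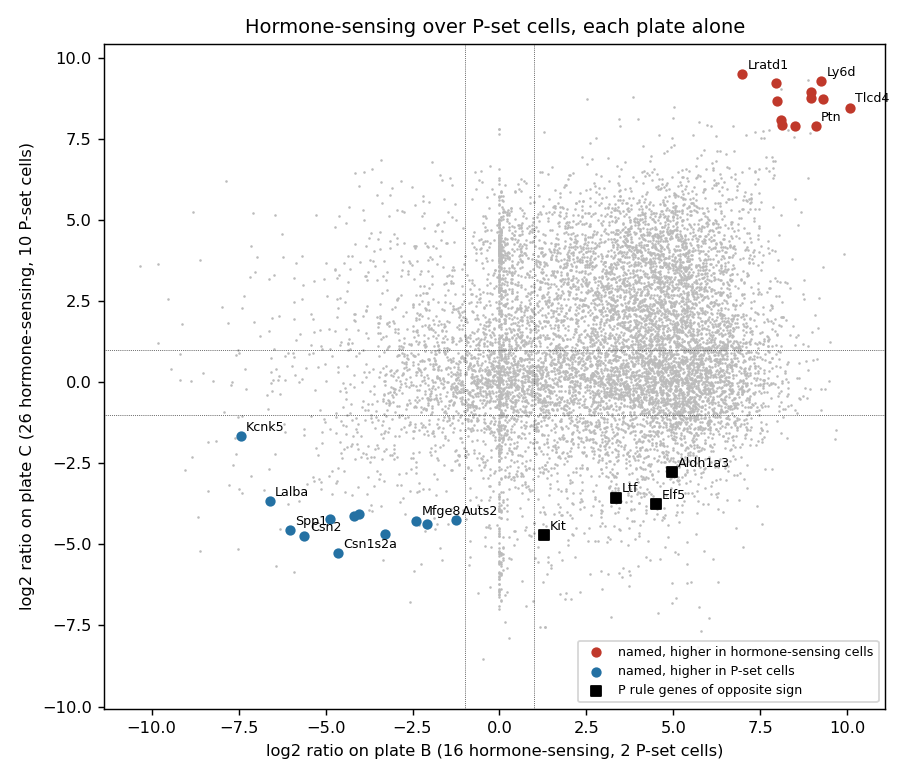
Log2 ratio of hormone-sensing over P-set cells (summed CPM + 1) on plate B (horizontal) and plate C (vertical), a point per gene; red and blue points are the 12 named genes of each direction, black squares are 4 P rule genes, and dotted lines mark a log2 ratio of 1 and −1. The named genes stand apart at both ends, while Kit, Elf5, Aldh1a3 and Ltf lie at positive values on plate B and negative values on plate C.

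Ptn, which encodes the heparin-binding growth factor pleiotrophin, was the gene that separated the classes completely. It lies on chromosome 6 at 36714924 to 36810179 (GRCm38.p6). Hormone-sensing cells held 319 to 9858 CPM with a median of 2853, and P-set cells 0 to 90.9 CPM with a median of 4.82. All 42 hormone-sensing cells were above the highest P-set cell, and Ptn was the only gene of the 10134 without overlap in that direction (0.00987%). In the opposite direction no gene lacked overlap (0.00%). The summed level of 3328 CPM (3314 to 3342) was 294-fold that of P-set cells (exact interval 256 to 340). These intervals cover counting of reads and not variation among cells, and P-set cell 43 held 45.7% of the Ptn reads of its class. Sorted basal cells held 458 CPM and the cells between 2086 CPM.

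The other genes of largest ratio on the hormone-sensing side were nearly unread in P-set cells. Ly6d, a surface antigen of the Ly6 family on chromosome 15, had a median of 419 CPM in hormone-sensing cells with a range of 0 to 4006, while the highest P-set cell had 1.65 CPM. The log2 ratio was 9.29, with 9.25 on plate B and 9.29 on plate C. The secreted whey-acidic-type protein gene Wfdc2 was at 0 to 2537 CPM, median 406, against a highest value of 1.76 CPM, and 41 of 42 cells stood above that value. Tbx3, a T-box transcription factor of mammary development, was at 0 to 962 CPM, median 232, against at most 2.02 CPM. Tph1, the rate-limiting enzyme of serotonin synthesis outside the brain, was at 0 to 4098 CPM, median 272, against at most 3.49 CPM. The groups overlap in each of these genes, with 34 (Ly6d), 39 (Tbx3) and 29 (Tph1) of 42 hormone-sensing cells above the highest P-set cell.

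Several of these genes were present in only part of the hormone-sensing cells. The alarmin cytokine gene Il33 was read in 22 of 42 cells at equal depth, with a median of 11.3 CPM and a highest value of 3230. Its 2 reads in the P-set sum give a ratio of 4661, with an exact interval of 1290 to 38492. Lratd1 was read in 21 of 42, and cell 84 held 62.4% of its reads, so that its log2 ratio of 8.97 became 7.63 without that cell. Tlcd4, Capsl, Iigp1 and Mtmr7 were also among the 12 genes of the naming rule, with log2 ratios of 8.62, 8.51, 8.03 and 7.98 and reads in 40, 38, 35 and 34 of 42 cells. In all 12 the ratio was past 1 on each plate, as the naming rule required. Iigp1 and Ly6d have close relatives with which reads may be shared, and Tbx3, Il33, Tlcd4 and Mtmr7 overlap other annotated genes.

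**Figure D3:**
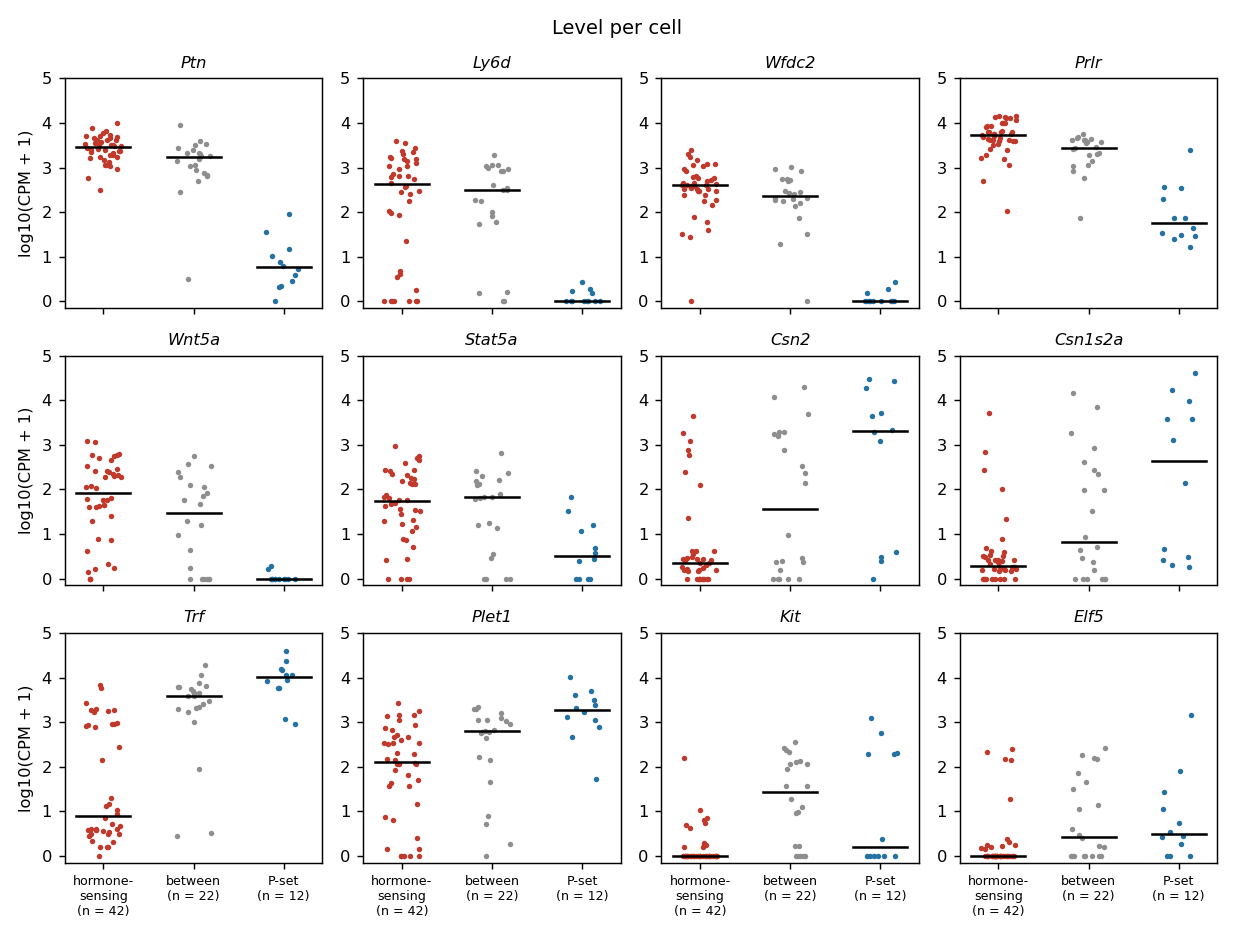
Level per cell as log10(CPM + 1) of 12 genes in hormone-sensing cells (red), cells between the classes (grey) and P-set cells (blue), a point per cell with the median as a bar. Ptn does not overlap between red and blue, Csn2 and Csn1s2a split the P-set cells into a high and a low part, and Kit is at 10 CPM or more in 5 of 12 blue and 13 of 22 grey points.

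Among the signals by which hormone-sensing cells are known to act on their neighbours, 3 of the 6 members that passed the level filter (of 8 listed) were called higher in hormone-sensing cells and none in P-set cells. The shares of all genes called in these directions were 34.8% and 2.57%. Wnt5a, a ligand of non-canonical Wnt signalling, was at 0 to 1231 CPM, median 86.8, and read in 33 of 42 cells, while no P-set cell exceeded 0.88 CPM. Calca, which encodes calcitonin, was read in 13 of 42 cells with a highest value of 3280 CPM against 7.07 CPM. Tnfsf11 was read in 8 of 42 cells with a highest value of 822 CPM against 16.2 CPM, and a log2 ratio of 4.37. Wnt4, the progesterone-induced Wnt ligand, was read in 30 of 42 hormone-sensing cells and in 1 of 12 P-set cells. It was not called, because that P-set cell (cell 5, 480 CPM) gave a log2 ratio of −1.42 on plate B against 6.30 on plate C. Adamts18 rests on hormone-sensing cell 63, which held 99.9% of its reads and also at least 3 basal markers. Sorted basal cells held Adamts18 at 85.9 CPM, and the authors list it among basal genes. The chemokine gene Cxcl12 rests on P-set cell 61 with 98.6%. The list median was 3.94, or 5.15 with Adamts18, which has no read in P-set cells, at its bound. Without cells 25, 33, 39, 61 and 63 it was 2.65, with 3 members called as before.

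Of the 13 receptors for these signals that passed the filter (of 19), 3 were called higher in hormone-sensing cells: Erbb2 and the frizzled receptor genes Fzd3 and Fzd2. Fzd2 had no read in P-set cells, and its summed level in hormone-sensing cells was 69.6-fold that of 3 reads there. Under median-of-ratios scaling 1 of the receptors was called. None was called in P-set cells, against background shares of 34.8% and 2.57%, and the list median was −0.66. Without cells 25, 33, 39, 61 and 63, 4 were called higher in hormone-sensing cells and the median was 0.25. Tnfrsf11a, the receptor RANK, was at 94.0 CPM in P-set cells and 12.1 CPM in hormone-sensing cells, but P-set cell 50 held 91.1% of the reads and the log2 ratio of −2.85 became 0.41 without it. Erbb3 behaved likewise, with 77.1% of its reads in the same cell and −1.36 becoming 0.64. For Ramp1 cell 43 held 99.0% of the P-set reads, and for Fzd1 cell 39 held 99.8%.

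EGF-family ligands other than Areg differed by member. Of 6 that passed the filter (of 10), Btc, Nrg4, Epgn and Tgfa were called higher in hormone-sensing cells, with log2 ratios of 3.44, 3.36, 2.77 and 2.24. Hbegf, the heparin-binding ligand, was called higher in P-set cells at −2.18, with a median of 140 CPM there against 0.73 CPM. Betacellulin (Btc) was read in 20 of 42 hormone-sensing cells and in 1 of 12 P-set cells. The list median was 3.07, and 34.8% of all genes were called higher in hormone-sensing cells.

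Genes known from mature luminal cells were mostly higher in the hormone-sensing class. Of 15 members that passed the filter (of 16), 13 were called higher in it and none in P-set cells, against 34.8% and 2.57% of all genes. The median was 3.15, or 4.09 with members unread in P-set cells, such as Spdef, at their bounds. The H rule itself holds genes known from mature luminal cells, so cells with such transcripts were more likely to enter the class. The homeobox gene Msx2 was not called, since its ratio of 4.09 was 0.52 on plate B. Cxcl15, a chemokine gene, was read in 29 of 42 cells and in no P-set cell. Gata3, the zinc-finger factor that maintains luminal identity, was read in 42 of 42 and 11 of 12 cells, at medians of 818 and 184 CPM and a log2 ratio of 1.99. The members of smallest ratio, Cldn8 (1.64), S100a6 (1.77) and Ly6a (1.80), overlapped widely between the classes.

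The prolactin receptor gene Prlr was read in every cell of both classes, at 108 to 14729 CPM in hormone-sensing cells with a median of 5492, and at 15.7 to 2492 CPM in P-set cells with a median of 57.6. The highest P-set value came from cell 81, with 67.1% of the class's reads. Stat5a, the transcription factor that prolactin activates, was at a median of 53.2 CPM against 2.30 CPM, a log2 ratio of 3.24. The feedback inhibitor Socs2 was at 14.2 against 1.36 CPM and a ratio of 3.74. Socs3 had no read in P-set cells, and its summed level in hormone-sensing cells was 91.0-fold that of 3 reads there. Jak2, Stat5b and Cish were not called. Of 7 members that passed (of 8), 4 were higher in hormone-sensing cells and none in P-set cells, against 34.8% and 2.57% of all genes. Without cells 25, 33, 39, 61 and 63 the number was 5.

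Milk protein and secretory genes were higher in P-set cells. Of 12 members that passed the filter (of 16), 11 were called higher in P-set cells and none in hormone-sensing cells, against 2.57% of all genes, and the median log2 ratio was −4.23. The P rule itself holds a casein (Csn3) and the defence genes Ltf and Lcn2, so cells with milk transcripts were more likely to enter the class. Trf, transferrin, was read in 12 of 12 P-set cells at 916 to 39052 CPM with a median of 10216, and in 26 of 42 hormone-sensing cells with a median of 6.91 CPM and a highest value of 6690. The log2 ratio was −4.19, with −4.17 on plate B and −4.11 on plate C. Wfdc18, a whey-acidic-type protein gene, was likewise read in 12 of 12 cells, at 123 to 20018 CPM. Mfge8, the milk fat globule protein lactadherin, was read in 11 of 12 P-set cells at a median of 2021 CPM and in 33 of 42 hormone-sensing cells at a median of 204 CPM. Plin2, the coat protein of lipid droplets, was read in 10 of 12 cells at a median of 1613 CPM against 4.04 CPM.

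The caseins were read in only part of the P-set cells. Csn2, beta-casein, was at 0 to 29339 CPM in P-set cells with a median of 2088, and at 0 to 4369 CPM in hormone-sensing cells with a median of 1.26. It was read in 9 of 12 and 12 of 42 cells, and the log2 ratio was −5.15. Csn1s2a, an alpha-S2 casein, had the ratio of largest size on this side, −5.65, and cell 81 at 40286 CPM held 51.9% of its P-set reads. Without that cell it was −4.74. Csn1s1 was read in 9 of 12 cells and in 16 of 42, with a ratio of −3.51. The caseins are a gene family on chromosome 5, and how reads that map to several genes were treated is not given in the sources used here. The milk sugar cofactor alpha-lactalbumin (Lalba) and the milk fat globule membrane protein butyrophilin (Btn1a1) were read in 7 and 6 of 12 cells, with ratios of −4.20 and −4.39. Muc1, at −5.10, was the member not called, since its plate B ratio was 5.79 and cell 45 held 86.0% of its reads.

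The 250 bases before a RefSeq transcript start (GRCm38.p6) are shown for 3 caseins of this group and for Ptn, the gene that separated the classes. Csn2 lies on the minus strand at chr5:87699426-87699675, Csn1s1 on the plus strand at chr5:87665958-87666207, Csn1s2a on the plus strand at chr5:87774200-87774449 and Ptn on the minus strand at chr6:36810180-36810429. Capitals mark a match to the STAT motif TTCNNNGAA, and each sequence reads 5′ to 3′ on the strand of its gene.
Csn2: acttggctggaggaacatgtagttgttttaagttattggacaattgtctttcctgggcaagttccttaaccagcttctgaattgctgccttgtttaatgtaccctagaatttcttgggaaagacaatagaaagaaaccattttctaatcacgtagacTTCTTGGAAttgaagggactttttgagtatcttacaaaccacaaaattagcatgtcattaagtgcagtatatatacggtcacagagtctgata
Csn1s1: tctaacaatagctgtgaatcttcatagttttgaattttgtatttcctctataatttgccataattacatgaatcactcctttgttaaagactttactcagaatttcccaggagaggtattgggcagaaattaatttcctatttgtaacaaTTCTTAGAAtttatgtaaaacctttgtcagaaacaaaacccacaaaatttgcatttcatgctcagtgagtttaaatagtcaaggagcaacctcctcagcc
Csn1s2a: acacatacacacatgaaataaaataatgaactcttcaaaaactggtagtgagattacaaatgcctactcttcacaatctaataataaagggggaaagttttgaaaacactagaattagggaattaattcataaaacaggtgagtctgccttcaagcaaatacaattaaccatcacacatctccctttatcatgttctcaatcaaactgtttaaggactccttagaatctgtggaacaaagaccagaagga
Ptn: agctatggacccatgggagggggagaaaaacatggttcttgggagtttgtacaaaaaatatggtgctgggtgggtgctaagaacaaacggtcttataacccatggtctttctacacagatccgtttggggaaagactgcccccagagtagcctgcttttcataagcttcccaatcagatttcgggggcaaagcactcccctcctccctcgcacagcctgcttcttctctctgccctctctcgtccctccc

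The match in Csn2 begins 93 bases before the start and that in Csn1s1 100 bases before it, while the Csn1s2a and Ptn windows hold none of the motifs searched. Of the 10134 genes compared, 8017 had a promoter in the table, and only these were searched. Of the genes called higher in P-set cells with a promoter there, 18 of 205 (8.78%) hold TTCNNNGAA on either strand. The share was 8.28% of those higher in hormone-sensing cells, 7.23% of the 8017 and 8.13% of all 27025 genes in the table. The ETS motif AGGAAGT was present in 6.83%, 7.85%, 8.12% and 8.80% of the same groups. The forkhead motif TGTTTAC was present in 2.44%, 2.92%, 2.64% and 3.54%. The palindromic estrogen response element was in none of the windows of these 8017 genes and in 18 of all 27025 genes in the table. No enrichment was tested, and no match says only that these letters are not in this window.

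**Figure D4:**
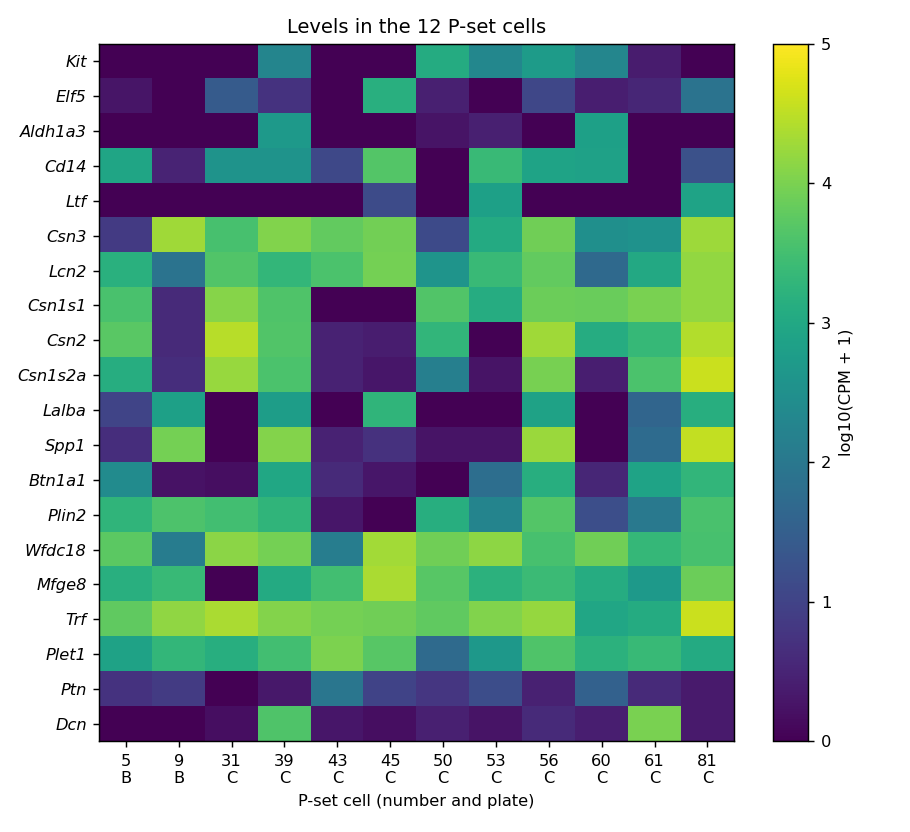
Levels as log10(CPM + 1) (colour scale) of P rule genes, milk and secretory genes, Plet1, Ptn and Dcn in the 12 P-set cells, with the cell number and plate below each column. Trf and Wfdc18 are present in all 12 columns, the caseins are low in cells 9, 43, 45 and 53 apart from Csn3 and the Csn1s1 of cell 53, and Dcn is high in cells 39 and 61.

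The P-set cells differed widely among themselves. Cells 31, 56 and 81 held Csn2 at 29339, 19324 and 26810 CPM, while cells 9, 43, 45 and 53 held 2.89, 2.02, 1.54 and 0 CPM. Cell 9, without Csn2, held Csn3 at 19566 CPM and Spp1, the secreted phosphoprotein osteopontin, at 9120 CPM. Kit was highest in cell 50 at 1213 CPM, where Csn2 was at 1978 CPM and Cd14 at 0. Cell 45 combined the highest Elf5 with the highest Cd14 (4630 CPM), Lalba (1877 CPM) and Mfge8 (23528 CPM). Cell 53 held Kit at 203 CPM, Ltf at 705 CPM and Cd14 at 2497 CPM. Several ratios rested on a cell of high level. Without cell 81 the log2 ratio of Spp1 went from −4.96 to −4.05 and that of Auts2 from −4.33 to −3.20. Without cell 45 that of Mfge8 went from −3.94 to −2.90. Without cell 9, which held 81.3% of its reads, the potassium channel gene Kcnk5 went from −4.19 to −1.91. Without cell 43 the aminopeptidase gene Anpep went from −4.02 to −3.31. Ano3, which overlaps the mucin gene Muc15, completed the named genes at −4.27.

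Of 13 innate defence genes other than Ltf and Lcn2 that passed (of 20), 5 were called higher in P-set cells and 2 in hormone-sensing cells, with a median of −2.59. The shares of all genes called in these directions were 2.57% and 34.8%. Ceruloplasmin (Cp) was read in 12 of 12 P-set cells at 55.8 to 6397 CPM and in 24 of 42 hormone-sensing cells at a median of 5.35 CPM, although its locus overlaps Hps3. Nfkbia, the inhibitor of NF-κB, was read in 12 of 12 and 41 of 42 cells with medians of 1431 and 707 CPM. Complement C3 and the chemokine gene Cxcl1 were each read in 8 of 12 P-set cells, with ratios of −2.99 and −3.16. Pigr, the receptor that carries immunoglobulin A into milk, was read in 2 of 12 cells, and cell 5 held 84.5% of its reads. The hormone-sensing exceptions were Slpi, a secreted protease inhibitor read in 34 of 42 cells and 1 of 12, and Il33. Without cells 25, 33, 39, 61 and 63, 4 and 2 members were called.

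Genes taken as luminal progenitor markers were divided. Of the 9 surface genes that passed (of 10), Plet1 and Tspan8 were called higher in P-set cells and Itgb3 and Itga2 in hormone-sensing cells, with a median of −0.73. Of all genes, 2.57% were called higher in P-set cells and 34.8% in hormone-sensing cells, the background for these genes and for the factors below. Plet1, a surface protein of placental and luminal epithelium, was read in 12 of 12 P-set cells at 51.5 to 10461 CPM, median 1847, and in 32 of 42 hormone-sensing cells at a median of 130 CPM. Itgb3 (CD61) was read in 4 of 42 hormone-sensing cells and in no P-set cell. Without cells 39 and 61 and the 3 hormone-sensing cells named above, 1 surface gene was called on the P-set side and the median was −2.60. Of the 11 transcription factor genes that passed (of 14), Cebpb was called higher in P-set cells at −1.99, with a read in 12 of 12 cells, and Stat5a in hormone-sensing cells. Ehf, an ETS factor related to Elf5, was read in 11 of 12 and 24 of 42 cells with medians of 464 and 8.21 CPM. Its ratio of −2.46 was −0.45 on plate B, where the median of all genes was 3.32, so it was not called. The median of these factors was −0.20. Without those 5 cells 2 factors were called higher in hormone-sensing cells and the median was 0.12.

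Of 8 estrogen-responsive genes outside the H set that passed (of 12), Myb and Rara were called higher in hormone-sensing cells and Igfbp5 in P-set cells, with a median of 0.35 against 0.85 for all genes, or −0.0555 under TMM scaling and 0.95 without cells 25, 33, 39, 61 and 63. Myb was read in 25 of 42 cells and in 1 of 12, with a ratio of 5.40. Igfbp5, an insulin-like growth factor binding protein, was at a median of 266 CPM in hormone-sensing cells and 1784 CPM in P-set cells, a ratio of −2.78. Xbp1 was read in 29 of 42 and 8 of 12 cells at a ratio of 1.16 and was not called. Of 5 Notch pathway genes that passed (of 11), the ligand gene Jag1 (3.38) and the receptor gene Notch3 (2.44) were called higher in hormone-sensing cells, with a list median of 0.48. Of all genes, 34.8% were called higher in hormone-sensing cells and 2.57% in P-set cells, the background for both lists. Jag1 was read in 35 of 42 cells at a median of 351 CPM and in 4 of 12 P-set cells.

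Lipid synthesis genes were divided between the classes. Of 12 that passed (of 14), Dgat1, Dgat2 and Elovl5 were called higher in hormone-sensing cells and the stearoyl-CoA desaturase gene Scd1 in P-set cells, with a median of 0.15, or −0.26 under TMM scaling. Dgat2, an enzyme of triglyceride synthesis, had no read in P-set cells, and its summed level in hormone-sensing cells was 160-fold that of 3 reads there. Scd1 was read in 8 of 12 and 21 of 42 cells, with a ratio of −3.32. Cell cycle genes had 8 of 17 members called higher in hormone-sensing cells and none in P-set cells, with a median of 1.77. The shares of all genes called in these directions, 34.8% and 2.57%, are the background for this list and for the lipid list. The cell cycle median was 5.08 on plate B, with 2 P-set cells, and 0.85 on plate C, against 3.32 and 0.81 for all genes. Summed over the 17 genes, the level per cell had a median of 206 CPM in hormone-sensing cells and 272 CPM in P-set cells. Bub1 (6.33) and Ccnb1 (5.12) were read in 4 and 6 of 42 cells, so these ratios come from few cells. Without cells 25, 33, 39, 61 and 63, 4 lipid synthesis genes and 12 cell cycle genes were called higher in hormone-sensing cells.

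Genes common to luminal cells were close to even. Krt18 was read in all 54 cells, with medians of 3009 CPM in hormone-sensing and 2895 CPM in P-set cells, and the 9 pan-luminal genes had a median of 0.36, or −0.0527 under TMM scaling. Epcam was called higher in P-set cells (−1.32) and the tight junction gene Cldn4 in hormone-sensing cells (1.44), the latter not under TMM or median-of-ratios scaling. Of 13 immediate early genes, which respond to stress and cell handling, Nr4a1 was called higher in hormone-sensing cells, and the median was −0.04. Of the markers of other cell types, 3 of 10 basal markers (Myh11, Mylk and Oxtr) were called higher in hormone-sensing cells with a list median of 2.44, which became 2 markers called and −1.01 without cells 25, 33, 39, 61 and 63. In that direction 34.8% of all genes were called. The 7 endothelial, 9 fibroblast, 2 adipocyte and 1 immune markers that passed gave no call in either direction, with medians of 2.29, −2.09, 1.36 and 2.83. Without the 5 cells 1 fibroblast marker was called higher in hormone-sensing cells, and the endothelial, fibroblast and adipocyte medians were −0.0915, −0.18 and −1.60. The endothelial median was 2.90 with unread genes at their bound.

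**Figure D5:**
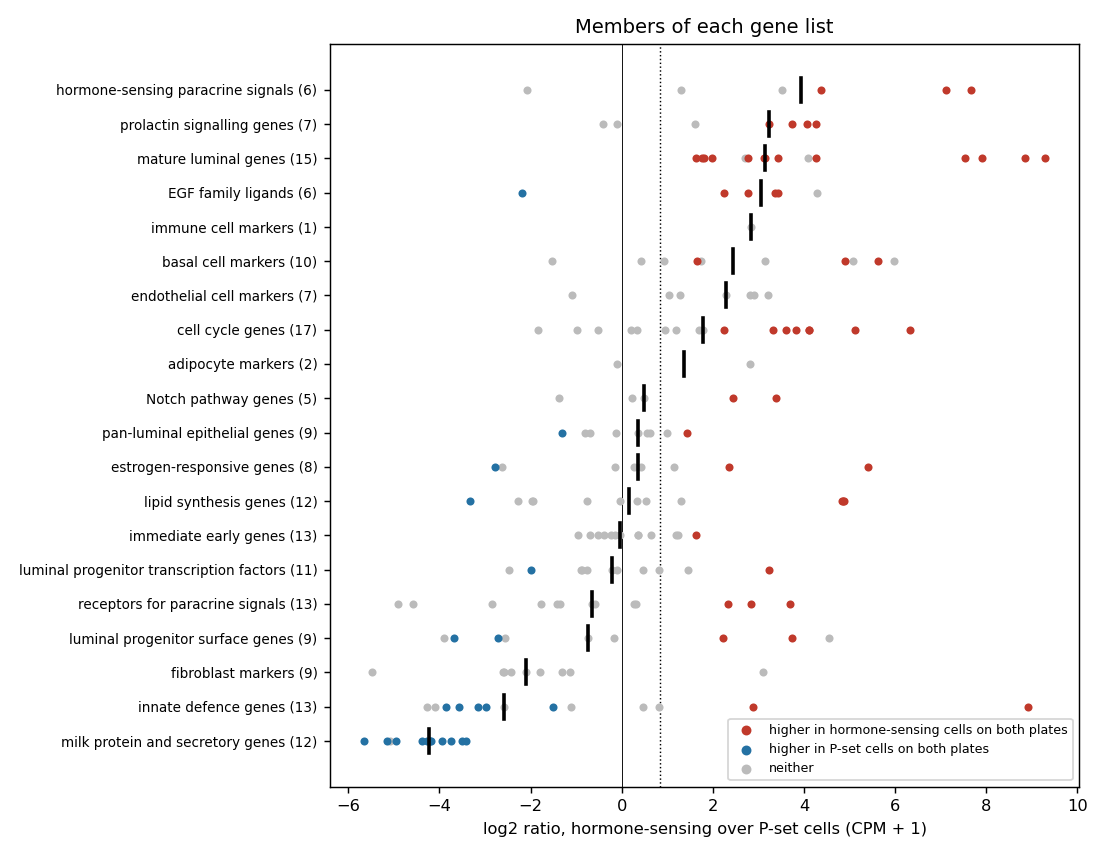
Log2 ratio of hormone-sensing over P-set cells (CPM + 1) of each list member that passed the level filter, 1 row per list with the number of members in brackets; red and blue points were called higher in hormone-sensing or P-set cells on both plates, grey points were not called, the black bar is the list median and the dotted line the median of all genes, 0.85. Milk protein and secretory genes lie wholly to the left, with a median of −4.23, and mature luminal genes wholly to the right.

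The 24 named genes were chosen for large ratios, which leaves much room for an intermediate level in the 22 cells between the classes. Of these genes, 22 had a summed level between those of the classes, 10 of 12 on the hormone-sensing side and 12 of 12 on the P-set side. The exceptions were Il33, at 561 CPM against 536 CPM in hormone-sensing cells, and Tbx3, at 379 CPM against 320 CPM. Of the other 170 list members compared, 87 lay between the classes, 55 were above both and 28 below both. Ly6a was at 1490 CPM in the cells between, against 683 CPM in hormone-sensing and 196 CPM in P-set cells, and Igfbp5 at 4247 CPM against 510 and 3523 CPM. Ptn was read in 21 of 22 cells between the classes and Trf in 20 of 22. The next counts are of genes that the class rule used, and describe the classes without being a finding. Esr1 and Kit were both at 10 CPM or more in 8 of 22 of these cells, in 1 of 42 hormone-sensing cells and in no P-set cell. Esr1 and Elf5 were both present in 6 of 22, 5 of 42 and 0 of 12.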

How the data were processed

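The deposited values were raw counts per gene and cell, made by the authors, who aligned reads to mm10 with Subread and counted them with featureCounts on its built-in RefSeq annotation. Strand and multi-mapping settings are not given in the sources used here. Of 27179 identifiers, 25275 matched a RefSeq symbol (GRCm38.p6). The 1904 others held 1.94% of counts and were left out, as were 15 mitochondrial and 124 ribosomal protein genes. The separate count table that pools all cells was left aside.

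The classes, gene lists and motifs were chosen with earlier results of these data known. Counts were summed per class, scaled to CPM and compared as log2 ratios with 1 CPM added, among genes of at least 5 CPM. No test was run, since the labels name no mouse. Detection ("read in") was counted after thinning each cell to 100000 reads. The named genes were, per direction, the 12 of largest ratio with at least 50 CPM and reads in at least 50% of cells of the higher class and a log2 ratio past 1 on each plate, and, per list, up to 4 members of largest ratio with at least 10 CPM plus those needed to complete a count. List members described beyond these, and the plate or cell values beside them, were chosen after their values were seen. Some genes that the rule names are not reported here. Sums have exact Poisson and shares exact Clopper-Pearson intervals. A fold against 0 reads was set against 3 counts over the class. It covers counting in the sum and not variation among the 12 P-set cells. For a gene read in 0 of 12 cells, the exact interval of the share reaches 26.5%. In simulated counts for this comparison (10148 genes, no variation beyond sampling), 100 of 100 raised and 100 of 100 lowered genes (log2 change of 2) were called, and 0 of 9948 unchanged. The planted change exceeded the fold and simulated cells of a class did not differ, so this outcome was set beforehand. It checks the calculation only and gives no rate of false calls in the real cells. No pair of cells looked deposited more than once (smallest chi-square per gene 58.6). Alternatives covered scaling (TMM and median-of-ratios factors, edgeR 4.0.16), added CPM, filters, class rules, plates, thinning and cells. Python 3.11.15 was used.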

Additional observations from a re-analysis of the deposited data

Results flagged for a closer look

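For 4 rule genes, none of the 24 named genes, 18 other list members and the median of 1 list the plates gave ratios of opposite direction, each past 1 on the log2 scale. The difference between plates was not tested, and plate B holds 2 P-set cells. For Kit the log2 ratio of hormone-sensing over P-set cells was 1.29 (plate B) and −4.71 (plate C), with values in that order of 4.51 and −3.77 for Elf5, 4.97 and −2.77 for Aldh1a3, and 3.36 and −3.56 for Ltf. These 4 genes are part of the rule that chose the cells. On plate B Kit and Ltf were at 1.45 and 9.26 CPM in hormone-sensing cells, under the 10 CPM of the rule, against 0 in P-set cells. Cell 3 of plate B held 52.4% of all Aldh1a3 reads of the hormone-sensing class. Of the other 170 list members compared, 18 were of the same kind, with values again in the order plate B and plate C. For signals and receptors they were −1.42 and 6.30 for Wnt4, 3.74 and −3.09 for Tnfrsf11a, 5.90 and −1.87 for Erbb3, 4.76 and −4.09 for Fzd4, and 2.90 and −1.45 for Fzd7. Surface and secretory genes gave 3.21 and −3.81 for Folr1, 4.95 and −6.20 for Mme, and 5.79 and −7.68 for Muc1. Innate defence genes gave 3.42 and −4.0 for Lbp, 4.53 and −3.82 for Cxcl2, −2.96 and 4.44 for Tlr2, and 1.71 and −4.0 for Tlr4, and lipid synthesis genes 4.88 and −2.44 for Srebf1 and 6.14 and −2.10 for Lpin1. The remaining values were −7.87 and 6.21 for Krt17, 9.65 and −1.74 for Dcn, 4.62 and −3.21 for Aurkb, and −1.81 and 1.25 for Junb, which are a basal marker, a fibroblast marker, a cell cycle gene and an immediate early gene. The median of the receptors for paracrine signals was 2.23 and −1.03.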

How the results depend on the processing

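The 2 class sizes, the 2 counts of called genes and the median ratio of all genes were recomputed under each alternative, and results that left their range are given here. The count called higher in P-set cells, 260, came to 415 under TMM scaling, 497 under median-of-ratios scaling, 86 without the highest cell of each gene and 143 when the class rule used counts thinned to 100000 reads. The count higher in hormone-sensing cells, 3527, was 2158 with 10 CPM added. On plate B alone, with 2 P-set cells, the counts were 7149 and 1052 and the median ratio 3.32, and on plate C alone 1823 genes were higher in P-set cells. With the fold over all cells alone, an alternative chosen after seeing the data, that count was 1726. A lead of 1 gene put 51 cells in the hormone-sensing class. A lead of 3 left no P-set cell on plate B, so no gene could be called. Among the 14 rule genes and the 24 named genes, ratios of changed sign were Elf5 without its highest cell (0.55) and, on plate B alone, Kit (1.29), Elf5 (4.51), Aldh1a3 (4.97) and Ltf (3.36). Among list medians past 1 in size, those of changed sign were of marker lists of other cell types, and some medians nearer 0 also changed sign. The adipocyte median was −0.0402 with no gene filter, −1.08 without the highest cell, −1.88 with the class rule at 20 CPM, −0.575 at a lead of 1, −0.13 without cells holding 3 markers of another type and −1.60 without cells 25, 33, 39, 61 and 63. Under the last 2 the basal median was −1.48 and −1.01. The endothelial median was −0.0429 at 20 CPM, −1.62 at a lead of 1 and −0.0915 without the 5 cells, and the fibroblast median 0.27 without the highest cell and 8.26 without marker-holding cells. The cause was not tested. Leaving out the 5 cells was chosen after seeing the data. The sign of the ratio was the same under every alternative run for 24 of 24 named genes. These genes were chosen in the same data for large ratios past 1 on each plate, so a change of sign was unlikely from the start. No paired analysis was possible because replicate numbers are cell numbers, which pair no cells, and no result comes from a test. A level under 0.172 CPM, which 3 reads give, could not be told from 0 in the P-set sum.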
